A study of Mus musculus with 8 samples.

Results

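The genes of Wnt signalling at the cell surface were followed in cultured muscle satellite cells with and without Dnmt3a. They were chosen by name, as every probe on the array that carries the symbol of 1 of 43 genes: 18 Wnt ligands, 10 Frizzled receptors, the co-receptors Lrp5 and Lrp6, 9 secreted antagonists, and 4 target genes and nuclear factors. The 43 genes are part of 31732 gene names on the array and have 52 probes. Of them 31 cleared the background on 4 or more of the 8 arrays and entered the tests, among 19655 genes tested.

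Satellite cells are the stem cells of skeletal muscle, and the enzyme made from Dnmt3a adds methyl groups to unmethylated DNA. The cells came from a fast muscle of the hindlimb, the extensor digitorum longus, of mice of 8 weeks that the labels call male, either Dnmt3a-KO or wild-type (WT) littermates. They grew for 5 days in growth medium, were replated at equal number and were then kept in differentiation medium until day 2, 4, 5 or 6. Each genotype had 1 array per day, 4 per genotype, and both genotypes were cultured alike. The labels do not say how or in which cells Dnmt3a was deleted, or whether the days came from separate animals or cultures, so the p-values below measure only the spread between these samples, which may be technical.

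Wnt ligands are lipid-modified secreted proteins that bind Frizzled receptors on nearby cells. Together with Lrp5 or Lrp6, a Frizzled bound by a canonical ligand stabilises beta-catenin, which acts with the nuclear factors Tcf7 and Lef1, and other ligands act through Frizzled and Ror receptors without beta-catenin. Sfrp proteins and Wif1 bind the ligands themselves, whereas Dkk1 and Dkk2 bind the LRP co-receptors. In muscle, Wnt signals are known for roles in satellite cell division, in fusion and in the choice between muscle and fat or connective tissue.

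Signals are given on each array in units where 100 is that array's 75th percentile, and a difference is always Dnmt3a-KO minus WT on the log2 scale. A signal of 1 probe cannot be set against that of another. The 75th percentile ran from 719.5 to 1528.1 intensity units, and 61.6% to 67.4% of spots on an array were well above background. Dnmt3a itself was at 51.9, 265, 250 and 204 in WT on days 2, 4, 5 and 6, and at 24.0, 52.5, 54.2 and 38.9 in Dnmt3a-KO, lower on 4 of 4 days at -2.01 ± 0.60 (SD, n = 4 days). Nothing in the labels or files says whether its probe lies in the deleted part. The muscle genes Pax7, Myod1, Cdh15, Itga7, Des and Myog were well above background on 8 arrays and Myf5 on none. Both day 2 arrays stand apart: they were on a slide of their own, read by another scanner model and extracted with another software version, and they carried 4 Y-linked transcripts and no Xist, while the 6 later arrays carried Xist and none of the 4, which goes against the label of male for those 6. Day 2 differs from the later days in all of these at once, so culture time and these features cannot be told apart, whereas each day holds both genotypes. The day 6 arrays were also on a slide of their own, while days 4 and 5 shared a slide. Days 4, 5 and 6 had the same scanner model and software version.

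The cells expressed some branches of the family and lacked signal for others. All 10 Frizzled genes and both LRP genes passed the background rule, as did 11 of 18 ligands, 4 of 9 antagonists and all 4 targets and nuclear factors, and 27 genes were well above background on all 8 arrays. Wnt2, Wnt2b, Wnt3, Wnt3a, Wnt7a, Wnt8a and the antagonists Frzb and Dkk1 were not well above background on any array. Another 4 genes were seen on a few arrays. By its brighter probe Wnt16 was well above background on WT days 2 and 5 and on Dnmt3a-KO day 5, and by its second probe on Dnmt3a-KO day 2. Sfrp4 and Sfrp5 were so on both day 2 arrays, and Sfrp1 on WT day 4 alone, where its signal was 4.48. These 12 genes have no test.

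Wnt10b had the largest genotype difference of the group. It encodes a canonical ligand known in muscle precursors for holding back the fat cell fate. Its signal was 7.02, 12.0, 8.98 and 6.32 in WT on days 2, 4, 5 and 6, and 26.4, 23.1, 21.3 and 16.3 in Dnmt3a-KO. Every Dnmt3a-KO array lay above every WT array. Wnt10b was the 1 tested gene of the group without overlap over the 4 days in either direction, against 0.941% of all tested genes with Dnmt3a-KO above WT and 0.773% below. The difference was 1.91, 0.95, 1.24 and 1.37 on days 2, 4, 5 and 6, a mean of 1.37 ± 0.40 (SD, n = 4 days) or 2.58-fold. The genotype test gave a limma adjusted p of 0.10 among all genes, short of the threshold of 0.05. Wnt10b passed with day as a random block (limma adjusted p = 0.011) and with a trended, robust variance (limma adjusted p = 0.038). Those settings also raised the count over all genes from 2 to 128 and 93. Under the other settings run Wnt10b did not pass, with limma adjusted p of 0.315 without the background filter and 0.698 without the day block. Under a normexp background correction, described with the group counts, its mean was -0.58.

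**Figure D1:**
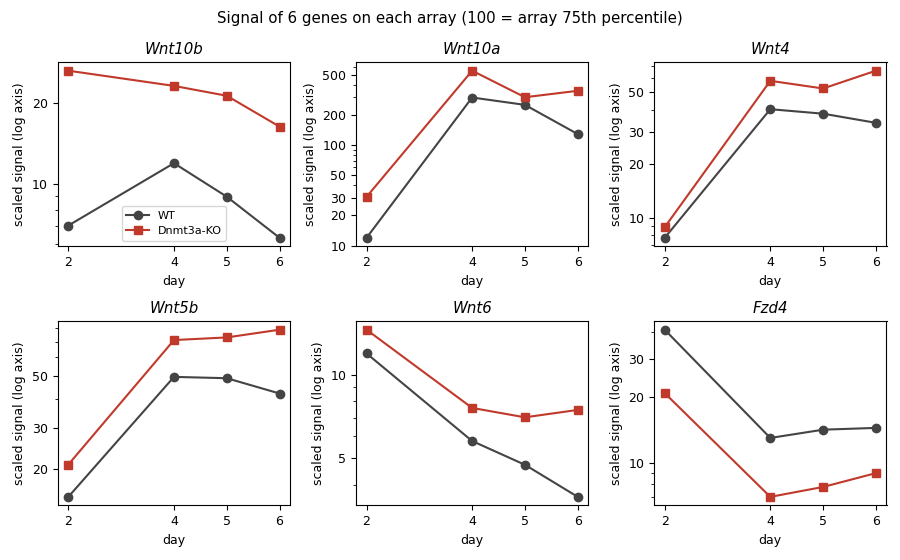
Signal of 6 genes on each array (log axis, 100 = the array's 75th percentile) against the day, with WT as grey circles and Dnmt3a-KO as red squares, 1 array per point. Wnt10b is at 16.3 to 26.4 on the Dnmt3a-KO arrays and at 6.32 to 12.0 on the WT arrays, and Fzd4 is lower in Dnmt3a-KO on each day.

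Wnt10a, Wnt6, Wnt5b, Wnt4 and Wnt9a were also higher in Dnmt3a-KO on each of the 4 days. Wnt10a, the closest relative of Wnt10b, was at 12.0, 297, 251 and 129 in WT and at 30.6, 549, 299 and 347 in Dnmt3a-KO. Its difference ranged from 0.25 on day 5 to 1.43 on day 6, with a mean of 0.98 ± 0.54 (SD, n = 4 days; limma adjusted p = 0.24). From day 4 on, its lowest Dnmt3a-KO array was just above its highest WT array. Wnt6, a canonical ligand, was at 11.9, 5.76, 4.73 and 3.63 in WT and at 14.5, 7.58, 7.01 and 7.46 in Dnmt3a-KO, and its mean difference was 0.57 ± 0.33 (SD, n = 4 days; limma adjusted p = 0.27). Its genotypes overlapped over the 4 days and not within days 4 to 6.

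Wnt5b and Wnt4, which can also act without beta-catenin, and Wnt9a were the other ligands higher on 4 of 4 days. Wnt5b was at 15.2, 49.6, 48.9 and 42.1 in WT and at 20.9, 71.2, 73.1 and 78.8 in Dnmt3a-KO, with a mean difference of 0.62 ± 0.20 (SD, n = 4 days; limma adjusted p = 0.14). Wnt4 was at 7.71, 40.2, 38.0 and 33.8 in WT and at 8.84, 58.0, 52.5 and 66.0 in Dnmt3a-KO, with a mean of 0.54 ± 0.32 (SD, n = 4 days; limma adjusted p = 0.28). Both were low on day 2 in either genotype, and from day 4 on their Dnmt3a-KO arrays lay above their WT arrays. Wnt9a was at 573, 540, 461 and 658 in WT and at 709, 743, 556 and 742 in Dnmt3a-KO, and its mean was 0.30 ± 0.12 (SD, n = 4 days; limma adjusted p = 0.28). Over days 4 to 6, Wnt4, Wnt5b, Wnt6, Wnt10a and Wnt10b had all 3 Dnmt3a-KO arrays above all 3 WT arrays, against 7.51% of all tested genes.

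Other ligands had differences of both signs or a difference on 1 day. Wnt5a, which acts through Ror2 and Frizzled receptors, was at 7.97, 55.6, 76.4 and 45.3 in WT and at 11.4, 13.5, 90.2 and 24.4 in Dnmt3a-KO, so it was lower on days 4 and 6 and higher on days 2 and 5. Its mean of -0.55 ± 1.17 (SD, n = 4 days; limma adjusted p = 0.63) was smaller than its spread. Wnt9b differed by 1.503 on day 6, with WT at 2.86 and Dnmt3a-KO at 8.10, and by -0.34 to 0.01 on the other days. Wnt11, Wnt7b and Wnt1 averaged 0.00, 0.10 and -0.10, with the sign of each turning under some settings, and the genotypes of each overlapped.

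Fzd4 was the Frizzled gene with the mean difference farthest from 0. It binds Wnt ligands and also Norrin. It was at 40.9, 13.0, 14.2 and 14.5 in WT and at 20.9, 6.98, 7.75 and 8.97 in Dnmt3a-KO. The Dnmt3a-KO array was lower on each day by 0.69 to 0.97, a mean of -0.86 ± 0.12 (SD, n = 4 days) or 1.81-fold. The genotypes overlapped over the 4 days, since the day 2 signal was higher in both, and did not within days 4 to 6. The difference missed the threshold (limma adjusted p = 0.067). It passed among genes above background on all 8 arrays (limma adjusted p = 0.031) and with a trended, robust variance (limma adjusted p = 0.037). Those settings raised the count over all genes from 2 to 38 and 93. Under the other settings run Fzd4 did not pass. Its limma adjusted p was 0.183 without the background filter and higher still without the day block.

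Other Frizzled genes moved less or on single days. Fzd9 was lower on 4 of 4 days, at 292, 411, 326 and 396 in WT and at 158, 333, 228 and 345 in Dnmt3a-KO, with a mean of -0.48 ± 0.30 (SD, n = 4 days; limma adjusted p = 0.30). Fzd7, a satellite cell receptor for Wnt7a, was at 65.3, 47.2, 46.7 and 38.9 in WT and at 90.0, 55.9, 52.4 and 45.5 in Dnmt3a-KO. Fzd7 averaged 0.28 ± 0.13 and Fzd1 0.37 ± 0.29 (SD, n = 4 days), both higher on 4 of 4 days with limma adjusted p of 0.31 and 0.35. A second Fzd7 probe gave 0.09, with 1 day below 0. Fzd10 was at 148 in WT and at 31.0 in Dnmt3a-KO on day 4 and differed by -0.49 to 0.23 on the other days. Fzd6 was at 19.8, 4.78, 1.80 and 3.98 in WT and at 19.4, 4.82, 4.95 and 4.63 in Dnmt3a-KO. It was not well above background in WT on day 5. Against that dim WT signal it was 2.75-fold higher in Dnmt3a-KO, which is a plain ratio and not a lower bound. The differences were -0.03 to 0.22 on the other days. Fzd2, Fzd3, Fzd5 and Fzd8 averaged -0.10 to 0.13, and the co-receptors Lrp5 and Lrp6 averaged -0.09 and -0.14. The genotypes of these 6 genes overlapped. The 2 probes of Fzd2 and of Fzd5 had means of opposite sign.

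**Figure D2:**
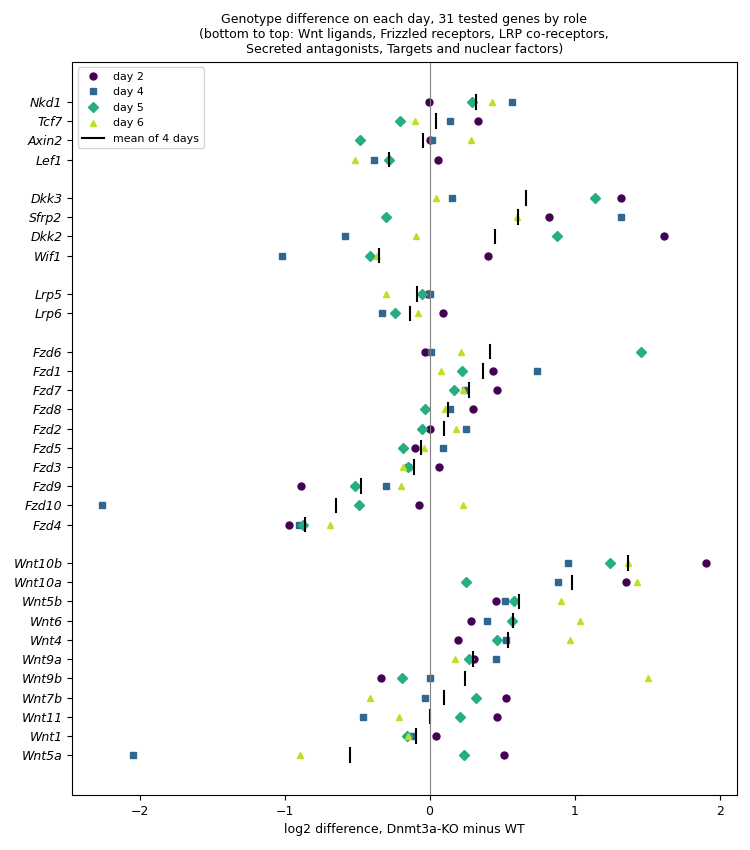
Difference between Dnmt3a-KO and WT (log2) for the 31 tested genes in rows grouped by role, with 1 symbol per day and a bar at the mean of 4 days. Wnt10b and Fzd4 lie on 1 side of 0 on all days, while Wnt5a and Fzd10 have a single day beyond -2; Dkk2 on day 2 and Fzd6 on day 5 are set against a WT array not well above background.

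The tested antagonists differed from day to day. Dkk3, a member of the Dickkopf family, was at 1.56, 12.1, 21.5 and 20.7 in WT and at 3.90, 13.5, 47.4 and 21.4 in Dnmt3a-KO. It was higher on 4 of 4 days, by 1.32 and 1.14 on days 2 and 5 and by 0.16 and 0.04 on days 4 and 6, a mean of 0.66 ± 0.66 (SD, n = 4 days; limma adjusted p = 0.38). Dkk2 was not well above background in WT on day 2, where Dnmt3a-KO was at least 2.40-fold higher. On days 4, 5 and 6 it was at 14.8, 29.5 and 15.9 in WT and at 9.84, 54.2 and 14.9 in Dnmt3a-KO, higher on day 5 alone. Wif1, which binds Wnt ligands, was at 8.18, 257, 172 and 189 in WT and at 10.8, 127, 130 and 147 in Dnmt3a-KO. It averaged -0.35 ± 0.58 (SD, n = 4 days; limma adjusted p = 0.57), or -0.60 without day 2 and -0.12 without day 4, and its Dnmt3a-KO arrays lay below its WT arrays within days 4 to 6. Fzd4 and Wif1 were the 2 tested genes with that order there, against 8.26% of all tested genes. Sfrp2 was at 3.85, 4.30, 5.81 and 7.87 in WT and at 6.82, 10.8, 4.72 and 11.9 in Dnmt3a-KO, lower on day 5 alone.

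Markers of other cells differed between genotypes on day 4, as Wnt5a, Fzd10 and Wif1 did, but not all days ran alike: on day 5 Dkk3 differed by 1.14 and on day 6 by 0.04. For markers of fibro-adipogenic cells and fibroblasts, 10 of 12 genes were tested, and their median difference was 0.41, -1.24, 0.09 and -0.55 on days 2, 4, 5 and 6. Their summed signal ran from 727 to 4650 on WT arrays and from 694 to 5280 on Dnmt3a-KO arrays. Lum was never above background. On day 4 the tested genes of the list ran from -2.49 for Col1a1 to 0.87 for Dcn, with Cd34 at 0.43 and Pdgfra at 0.07 also above 0, and on day 2 Col3a1, Ly6a and Pi16 were below 0. For smooth muscle and pericytes, 5 of 7 genes were tested, and the medians were 0.66, -1.58, 0.00 and -0.94, with sums of 14000 to 24300 in WT and 13400 to 22400 in Dnmt3a-KO. Most of each sum came from Acta2, at 10200 to 14920, and Tagln. On day 4 the tested genes ran from -3.78 for Cnn1 to 1.17 for Rgs5, with Acta2 at -0.47. For Schwann cells, 6 of 6 genes were tested, and the medians were 0.13, -1.30, 0.28 and 0.12, with sums of 101 to 188 and 106 to 175. S100b, a Schwann cell marker, differed by -2.26 on day 4, when Fzd10 differed by -2.26. The part of these markers in the differences of Wnt5a, Fzd10 and the antagonists was not tested. In such bulk samples fewer cells of a type and less RNA per cell cannot be told apart.

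**Figure D3:**
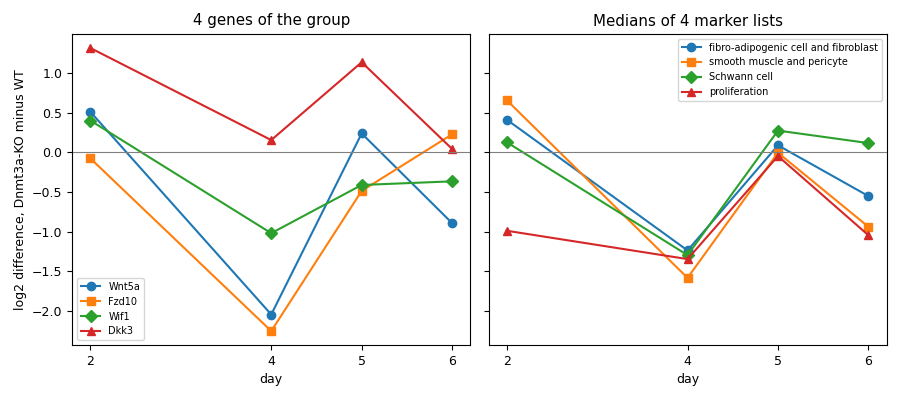
Difference between Dnmt3a-KO and WT (log2) against the day for Wnt5a, Fzd10, Wif1 and Dkk3 (left) and for the medians of 4 marker lists (right), 1 array per genotype and day. On day 4 Wnt5a and Fzd10 are at -2.05 and -2.26 and the 4 marker medians lie between -1.58 and -1.24.

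The 7 proliferation genes had medians of -0.99, -1.35, -0.05 and -1.05 on days 2, 4, 5 and 6, with summed signals of 606 to 2340 in WT and 478 to 1180 in Dnmt3a-KO. The 3 tested adipocyte markers of 6 had medians of -0.14, -0.40, 0.88 and -0.82, with sums of 47.2 to 63.7 and 43.2 to 59.4. The 7 tested satellite cell and myoblast markers had medians of -0.20, -0.24, -0.31 and -0.17. Among them Fgfr4, Pax7 and Cdh15 were lower on 4 of 4 days, at -1.33, -0.74 and -0.22, with limma adjusted p of 0.10, 0.28 and 0.38. The medians were 0.17, -0.12, -0.07 and -0.04 for 6 myotube markers, 0.03, -0.19, -0.05 and -0.22 for 5 of macrophages and leukocytes, and 0.09, -0.21, -0.25 and 0.34 for 3 of endothelium. The part of these lists in the differences of the group was not tested. Lep, Cd68, Lyz2, Tek and Tie1 were never above background.

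Transcripts that read out canonical signalling showed no shared direction. Axin2, a feedback target of beta-catenin, was not well above background on either day 2 array, and later was at 4.53, 5.70 and 3.90 in WT and at 4.58, 4.09 and 4.75 in Dnmt3a-KO. A second Axin2 probe was not well above background on any array. Lef1 was at 69.6, 25.9, 31.7 and 25.8 in WT and at 72.5, 19.9, 26.1 and 18.1 in Dnmt3a-KO, a mean of -0.28 ± 0.25 (SD, n = 4 days; limma adjusted p = 0.40). Tcf7 was at 19.7, 15.0, 13.1 and 15.5 in WT and at 24.8, 16.6, 11.4 and 14.4 in Dnmt3a-KO, an average of 0.04 ± 0.24 (SD, n = 4 days). Nkd1, an inhibitor induced by the pathway, averaged 0.32 ± 0.25 (SD, n = 4 days; limma adjusted p = 0.35), with WT at 85.3 and Dnmt3a-KO at 85.0 on day 2 and differences of 0.29 to 0.57 later. The genotypes of all 4 genes overlapped.

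Counted over the group, 0 of 31 tested genes passed the genotype test (limma, adjusted p under 0.05), against 0.0102% of all genes, or 2 genes. At an unadjusted p under 0.05 there were 10 higher and 2 lower genes among the 31. Over all 19655 tested genes there were 1212 higher and 1319 lower, or 12.9% for both directions together. On all 4 days 9 genes were higher, 6 ligands with Fzd1, Fzd7 and Dkk3, against 10.9% of all genes, and Fzd4 and Fzd9 were lower, against 11.5%. The median difference was 0.10 for the 31 genes and -0.01 for all genes tested, and for the 11 ligands it was 0.30. A normexp background correction turned these directions: the median of the 31 genes went to -0.70 and that of all genes to -0.36, and Wnt4, Wnt5b, Wnt6, Wnt10b, Fzd7 and Dkk3 lay below 0 while Wnt10a stayed at 0.59 and Fzd4 at -1.32. That correction left the 1st percentile of signal at 1849 on WT day 2 and 1494 on WT day 6 and at 58.8 to 223.5 on the other 6 arrays, from 13 to 25 before it. A further setting, chosen after the data were seen, subtracted the local background and added 50 to the result. There Wnt10b was at 0.75, Wnt6 at 0.15, Dkk3 at 0.34, Dkk2 at 0.21, Fzd6 at 0.04 and Fzd4 at -0.53. The median of the 31 genes was 0.04. Dkk2 averaged 0.45 over 4 days, 0.07 without day 2 and 0.80 without day 4, and Fzd6 averaged 0.42 over 4 days and 0.07 without day 5. No gene of the group passed the interaction test, for a linear change of the difference with the day (limma adjusted p under 0.05). The share was 0% of all genes, of which 820 had an unadjusted p under 0.05. With 2 residual degrees of freedom, that fit was not made to find a difference on 1 middle day, as in Fzd10 on day 4.

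On single days, with 1 array per genotype and no test, 3 or 4 of the 31 tested genes differed by 2-fold or more. On day 2, 4 of 31 were higher, Wnt10a, Wnt10b, Dkk2 and Dkk3, against 1.89% of all genes, and none was lower, against 1.14%. On day 4, 1 of 31 was higher, Sfrp2, against 1.46%, and 3 were lower, Wnt5a, Fzd10 and Wif1, against 3.07%. On day 5, 3 of 31 were higher, Wnt10b, Fzd6 and Dkk3, against 0.916%, and none was lower, against 1.82%. On day 6, 4 of 31 were higher, Wnt6, Wnt9b, Wnt10a and Wnt10b, against 1.3%, and none was lower, against 1.88%. Wnt10b reached 2-fold on days 2, 5 and 6 and was 1.94-fold higher on day 4.

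Over the days of differentiation the group had about the share of rising genes that all genes had, and 15 of its 31 tested genes passed in neither direction. Of 31 tested genes 8 rose (limma, adjusted p under 0.05, slope over days with genotype as a covariate), against 25.9% of all genes, and 8 fell, against 19.5%. The rising genes were the ligands Wnt4, Wnt5b, Wnt10a and Wnt11, the antagonists Dkk2, Dkk3 and Wif1, and Axin2. The falling genes were Wnt1, Wnt6, Wnt7b, Fzd4, Fzd6, Fzd7, Lef1 and Tcf7. The mean of days 4 to 6 against day 2 was 24.8-fold higher for Wif1 in WT and 12.4-fold in Dnmt3a-KO, and for Wnt10a 17.7-fold and 12.6-fold higher. Wnt11, which acts without beta-catenin and is known in muscle for fibre orientation, was at 2.67, 29.8, 27.6 and 22.0 in WT and at 3.68, 21.7, 31.9 and 19.0 in Dnmt3a-KO, low on day 2 in both. Among the falling genes Wnt7b was at 59.6, 8.70, 7.71 and 15.7 in WT and at 85.9, 8.53, 9.61 and 11.8 in Dnmt3a-KO, so it was 5.86-fold lower after day 2 in WT and 8.70-fold lower in Dnmt3a-KO. By its brighter probe Wnt1 was at 53.6, 32.0, 29.1 and 30.2 in WT and at 55.2, 29.4, 26.1 and 27.2 in Dnmt3a-KO, highest on day 2 in both. A second Wnt1 probe, well above background on 2 arrays only, went the other way. It was 1.91-fold higher after day 2 in WT and 1.55-fold higher in Dnmt3a-KO. Lef1 was 2.51-fold and 3.44-fold lower after day 2.

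The slope calls depended on which days were fitted. Without day 2, 0 of the 31 genes passed (limma, lowest adjusted p = 0.55), and Wnt10a turned from 0.90 to -0.47 log2 units per day, Wnt7b from -0.66 to 0.33 and Fzd4 from -0.35 to 0.13. Without day 5, 0 passed as well. With the slide as a random block 3 passed, Wnt1, Wnt6 and Dkk3 (limma adjusted p = 0.045, 0.048 and 0.037). Since day 2 had its own slide, scanner model and sex-linked transcripts, a change with time and a change with these cannot be told apart.

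**Figure D4:**
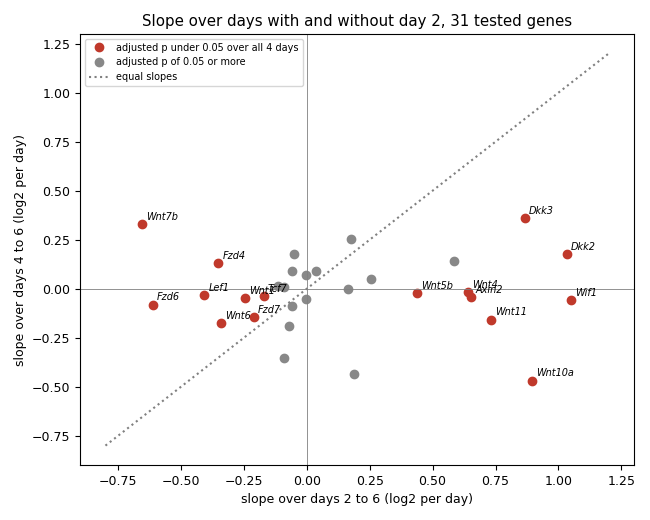
Slope over days 4 to 6 (vertical, log2 per day) against the slope over days 2 to 6 (horizontal) for the 31 tested genes, with the 16 genes past the threshold over all 4 days in red and named. Wnt10a, at 0.90 with day 2 and -0.47 without it, and Wnt7b, at -0.66 and 0.33, lie on opposite sides of 0.

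Among 88 other genes of the pathway, 73 were tested and 0 passed the genotype test by limma. Of them 5 higher and 5 lower had an unadjusted p under 0.05, against 12.9% of all genes for both directions together. Over the days 8 rose and 22 fell, against 25.9% and 19.5% of all genes. Genes of Wnt secretion and lipidation had means of -0.11 for Porcn, 0.00 for Wls and -0.10 for Notum. Ror2, a receptor of Wnt5a, was at 8.66, 51.0, 48.7 and 36.1 in WT and at 2.87, 17.4, 27.1 and 17.6 in Dnmt3a-KO, lower on 4 of 4 days at -1.25 ± 0.37 (SD, n = 4 days; limma adjusted p = 0.11). Ndp, which encodes the Fzd4 ligand Norrin, was at 8.39, 4.87, 5.44 and 7.09 in WT and at 22.4, 10.9, 5.53 and 15.1 in Dnmt3a-KO, a mean of 0.92 ± 0.61 (SD, n = 4 days; limma adjusted p = 0.29). The R-spondin receptor gene Lgr6 averaged 0.99 ± 0.71 and the Dkk co-receptor gene Kremen2 -1.06 ± 1.32. In the list of other Wnt receptors and planar polarity Lrp4 had the highest mean, 0.30, and among the extracellular modulators Cthrc1 had the lowest, -0.64 ± 1.02. Nuclear effectors ran from -0.30 for Tcf7l2 to 0.20 for Tle2, and commonly used target genes from -0.34 for Twist1 to 0.38 for Id2. The 19 tested genes of the cytoplasmic relay had a median of 0.02 and no call, with means of -0.17 for Gsk3b to 0.32 for Dact1.

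Several of the ligand genes are neighbours, and neighbours did not always share a difference. On mm9, the build named in the array files, the Wnt6 probe lies at chr1:74831461-74831520 and the Wnt10a probe 19.1 kb further at chr1:74850633-74850692, and both genes were higher on 4 of 4 days. The Wnt10b probe lies at chr15:98602209-98602268 and the Wnt1 probe 21.9 kb away at chr15:98624201-98624260, and these averaged 1.37 and -0.10. A second Wnt1 probe, well above background on 2 arrays, averaged 0.16. Wnt9a and Wnt9b neighbour Wnt3a and Wnt3, which were never above background. The Fzd4 probe lies at chr7:96557478-96557537. The files give no exon for these probes.

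Because Dnmt3a methylates CpG sites, the promoters of the tested genes with the largest difference of 1 sign on all 4 days are shown. RefSeq windows on GRCm38.p6, 250 bases before to 50 after each start, matched 30 of the 43 genes in 37 windows. Below are the 250 bases before the start of Wnt10b (chr15:98778151-98778400, minus strand) and Fzd4 (chr7:89404116-89404365, plus strand), with CpG in capitals. Wnt10a had no entry.
Wnt10b: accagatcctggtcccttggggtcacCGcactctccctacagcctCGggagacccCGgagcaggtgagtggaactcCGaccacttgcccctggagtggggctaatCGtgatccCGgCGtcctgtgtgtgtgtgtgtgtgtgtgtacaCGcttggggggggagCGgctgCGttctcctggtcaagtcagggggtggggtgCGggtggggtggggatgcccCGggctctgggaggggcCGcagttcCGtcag
Fzd4: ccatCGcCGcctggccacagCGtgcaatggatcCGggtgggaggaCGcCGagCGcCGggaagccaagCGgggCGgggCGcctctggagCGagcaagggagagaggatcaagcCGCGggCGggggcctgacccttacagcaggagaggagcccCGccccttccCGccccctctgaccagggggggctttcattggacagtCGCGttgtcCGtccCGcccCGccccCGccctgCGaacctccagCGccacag
The Wnt10b stretch holds 14 CpG, a ratio of observed to expected CpG of 0.522, and the Fzd4 stretch holds 25, a ratio of 0.755. Over all 300 bases the median ratio was 0.744 for the 37 windows of the group and 0.384 for 32851 windows of all genes. The 9 windows of genes seen on fewer than 4 arrays had a median of 0.744 and the 28 others 0.748. The core CTTTGAA bound by Tcf and Lef factors, its variant CTTTGAT, the form CTTTGTT and the related form CTTTGTA were searched on both strands and occurred in 16.2% of the group's windows and 16.9% of all windows, with none in the Wnt10b or Fzd4 window. DNA methylation was not measured in these samples.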

How the data were processed

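RNA of 8 cultures was labelled with Cy3 and hybridised to 1-colour Agilent arrays. The intensity of each spot was read, per the file headers, by Feature Extraction 11.0.1.1 on day 2 and 9.5.3.1 later, with the submitters' processing notes naming 9.5. The deposited value table holds a score, which equals the processed intensity times 100 over the 75th percentile of all spots, with negatives set to 0 and rounded.

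Processed signals were divided by each array's 75th percentile over 43020 non-control spots, raised to a floor of 0.00763 and log2-transformed. Outlier spots were left out, and the brightest probe per gene was kept. Genes that cleared the background on 4 or more arrays were tested with limma 3.58.1 in R 4.3.3 (lmFit, eBayes, Benjamini-Hochberg adjusted p under 0.05). The genotype fit has day as a block (3 residual degrees of freedom) and the slope fit genotype as a covariate (5). The interaction fit, linear in the day, has 2. Where an array is not well above background, "at least" takes the fold against the lowest signal well above background on it. Genes were named by a rule: past a threshold, a mean of at least 0.5 with 1 sign on all days, or 2-fold on 2 days. Others are given for completeness of their role and named after their values were seen. The steps were tested on simulated data. The members and lists were chosen with earlier results of these data known.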

Additional observations from a re-analysis of the deposited data

Results flagged for a closer look

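On 3 genes 1 day stood apart from the other 3 in the genotype difference by Dixon's criterion for groups of 4, which chance meets in about 1 in 20 groups. Fzd6 differed by 1.46 on day 5 and by -0.03 to 0.22 on the other days, with the WT array of day 5 not well above background. Wnt1 differed by 0.044 on day 2 and by -0.16 to -0.12 later. Fzd3 differed by 0.062 on day 2 and by -0.18 to -0.15 later.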

How the results depend on the processing

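The count of genes past the genotype threshold was 2 by the main settings. It was 0 with normexp, quantile or median scaling, the mean of all probes, the deposited score, no filter or no day block. With local background subtraction plus 50 (added after the data were seen) it was 74. It was 38 with genes above background on all 8 arrays, 93 with a trended, robust variance and 128 with day as a random block. Leaving out a day gave 0 to 3. The slope count of 8920 went to 0 with normexp, 1935 with the slide as a random block, and 0 to 9863 without a day. The group's slope count of 16 went to 0 with normexp, 10 without a filter, 3 with the slide block and 0 to 19 without a day. The interaction count was 0 under each setting run. Genes of the group at 2-fold on days 2, 4, 5 and 6 numbered 4, 4, 3 and 4 by the main settings, 14, 9, 0 and 20 with normexp, 2, 2, 0 and 1 with background subtraction and 7, 9, 5 and 9 at 1.5-fold. The group's median difference of 0.10 went to -0.70 with normexp, 0.044 with background subtraction and 0 without a filter, and was 0.07 to 0.14 without a day.

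With normexp 11 named genes changed sign: Wnt4 to -0.37, Wnt5b to -0.10, Wnt6 to -1.15, Wnt7b to -0.70, Wnt10b to -0.58, Wnt11 to -1.02, Fzd6 to -1.15, Fzd7 to -0.14, Dkk2 to -1.05, Dkk3 to -0.84 and Tcf7 to -0.93. Wnt11 also went to -0.005 with background subtraction, -0.015 with quantile scaling and -0.042 with the deposited score, and ran from -0.154 to 0.154 without 1 day, below 0 without day 2 or 5. Without 1 day Wnt7b ran from -0.041 to 0.272 and Tcf7 from -0.054 to 0.124, each lowest without day 2, and Axin2 from -0.154 to 0.099, highest without day 5. With the mean of all probes Wnt1 went to 0.031 and Axin2 to 0.052. The cause of these changes was not tested. Wnt10b stayed at 1.19 to 1.51 and Fzd4 at -0.91 to -0.82 without any 1 day, with limma adjusted p of 0.16 to 0.38 and 0.12 to 0.31. The median CpG ratio of 0.744 was 0.751 before the start alone. With 1 array per genotype and day, array number limits every value, and dim genes near background are the least certain.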
